A study of Mus musculus with 48 samples.

Results

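Wfs1, Fibcd1, Mpped1, Gpr161, Pou3f1 and Man1a are genes known for their enrichment in pyramidal cells of hippocampal field CA1, and these 6 of the 24421 genes listed were picked by symbol, as known markers and with earlier results of these data in view, to follow CA1 transcripts through all groups of the study. Cornus Ammonis tissue (fields CA1, CA2 and CA3, with the dentate gyrus removed) came from 48 males, each giving 1 RNA-sequencing library. The Glu-CB1 line (nex-cre x CB1f/f) lacks the cannabinoid receptor CB1 in glutamatergic neurons and the GABA-CB1 line (dlx5/6-cre x CB1f/f) lacks it in GABAergic neurons of the forebrain, and each KO was set against CB1-WT littermates. Mice were taken in the basal state from the home cage or after 5 min in an open field arena. The arena was a new environment meant to activate hippocampal neurons, and by the paper's account the tissue was isolated an hour after it.

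The labels give an age of 8 weeks for all mice, while the study's text gives a range of ages that starts at 8 weeks. In the Glu-CB1 line 5 CB1-WT and 7 Glu-CB1-KO libraries were basal, and the open field again had 5 and 7. In the GABA-CB1 line 6 CB1-WT and 6 GABA-CB1-KO libraries were basal, while 7 and 5 followed the open field. Groups follow the sample labels, and the study's text gives the sizes of these last groups the other way round. The promoters that drive Cre limit the model: nex-cre removes CB1 from pyramidal cells of all CA fields and not from CA1 alone, and dlx5/6-cre leaves the receptor in the pyramidal cells that express the 6 genes. The study also chose its samples partly on RT-qPCR of a CA marker and a dentate marker, so the spread of tissue makeup described here is that of chosen samples.

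CA1 pyramidal cells are the main output neurons of the hippocampus. They receive the Schaffer collaterals of CA3 and project to the subiculum and cortex, and they differ from CA2, CA3 and dentate granule cells by sets of transcripts that are known from in situ hybridization and single-cell studies. CB1 sits mostly on axon terminals, on GABAergic basket cell terminals around pyramidal cells and, at a lower density, on glutamatergic terminals, where it dampens transmitter release. The 6 genes work in different places of the cell. Wfs1 (wolframin) is a membrane protein of the endoplasmic reticulum that bears on calcium and the unfolded protein response, and Man1a is a Golgi mannosidase that trims N-glycans. Fibcd1 is a receptor of the plasma membrane that binds acetylated sugars, and Gpr161 is an orphan G protein-coupled receptor of the primary cilium that holds back Hedgehog signaling. Pou3f1 is a POU domain transcription factor, and Mpped1 carries a metallophosphoesterase domain.

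Library totals ran from 25892654 to 34091080 counted reads. Cnr1, the gene of CB1, was lower in the KO libraries of every comparison without overlap, with 204 to 249 CPM (counts scaled to library size, with TMM factors) in Glu-CB1-KO against 330 to 412 CPM in their CB1-WT, and 100.3 to 158 CPM in GABA-CB1-KO against 311 to 394 CPM in theirs. On the first principal component of all genes, which held 14.5% of the variance within groups, 14 libraries stood apart from the other 34. Each group held 1 to 3 of the 14, and the labels name no batch for them. All of the 14 had title numbers (the last number in each library's title) among the lower ones of their line. Some other libraries with such low numbers did not stand apart. What the title number stands for is not stated, and whether it marks a batch was not tested. Choroid plexus markers summed to 45.9 to 4072 CPM, with the highest sums in replicate 4 of GABA-CB1-KO after the open field (4072 CPM) and replicate 3 of GABA-CB1-WT in the basal state (1520 CPM). Summed dentate granule markers were between 96.2 and 293 CPM.

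All 6 genes were well detected in every library, from 699 counts for Gpr161 at the lowest to 10962 counts for Mpped1 at the highest. Per kilobase of exons, which allows a comparison between genes, Mpped1 was the most abundant with 88.6 ± 8.39 CPM per kb (SD, n = 48), a level above that of 96.3% of the 15570 genes tested over all libraries. Fibcd1 followed with 50.6 ± 4.87 and Wfs1 with 38.7 ± 7.19 CPM per kb. Man1a (20.6 ± 2.85), Gpr161 (16.3 ± 2.22) and Pou3f1 (14.3 ± 1.59 CPM per kb) were lower. The ranges of Mpped1 and Fibcd1 did not overlap. Each further neighbor in this order overlapped with the next: Fibcd1 was above Wfs1 in 44 of 48 libraries, Wfs1 above Man1a in 48, Man1a above Gpr161 in 45 and Gpr161 above Pou3f1 in 39, so within a mouse the order mostly held while the ranges over mice did not separate.

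**Figure D1:**
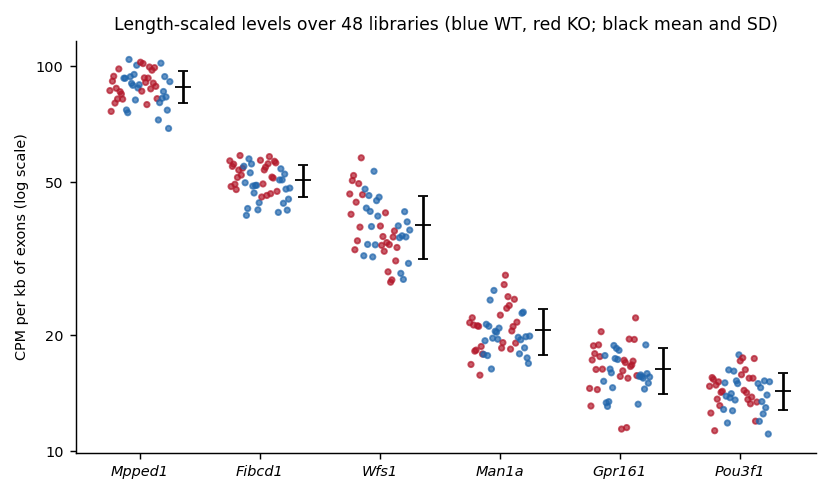
Level of each gene in CPM per kb of exons (vertical log axis), 1 point per library (blue CB1-WT, red KO), with the mean and SD of 48 libraries in black. Mpped1 lies above the 5 other genes in every library, and Man1a, Gpr161 and Pou3f1 share a common range that lies mostly below Wfs1.

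The genes lie on different chromosomes of the mm10 build. Wfs1 spans chr5:36966104-36988982 on the minus strand with 8 exons, Man1a chr10:53906033-54075796 on the minus strand with 13 exons, and Fibcd1 chr2:31813290-31846005 on the minus strand with 7 exons. Gpr161 spans chr1:165295766-165321851 and Mpped1 chr15:83780023-83858474, both on the plus strand with 7 exons, and Pou3f1 is a single exon at chr4:124657646-124660655 on the plus strand. No other gene in the list overlapped any of them. Their promoters differed in base composition. RefSeq promoters (GRCm38.p6) were found for 5 of the 6 genes, Pou3f1 being the other, at the same start as in the deposited list or, for Man1a, 59 bases from it, and the 250 bases before the start site were read on the strand of the gene. Mpped1 had 88.8% G and C with 47 CpG, more than 99.99% of the 32851 promoters of the table, whose median was 52.4%. Wfs1 (69.6%), Fibcd1 (71.6%) and Man1a (72.4%) were also GC-rich. Gpr161 stood at the other end with 42.4% and 1 CpG. RefSeq lists 2 promoters each for Mpped1 and Gpr161. Only the promoter at the start in the deposited list was read, so composition and motifs of these genes are those of that promoter.

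These 4 promoters are shown because Mpped1 and Fibcd1 are a pair whose levels varied together between mice (below), while Wfs1 and Gpr161 are the members whose promoter held one of the motifs searched. The other pairs of members with GC-rich promoters had Pearson's r from 0.08 (Wfs1 with Fibcd1) to 0.38 (Wfs1 with Man1a). A relation of base composition to shared variation was not tested. Capitals mark the E-box CAGATG as it reads on the other strand.
Mpped1, chr15:83779773-83780022, plus strand: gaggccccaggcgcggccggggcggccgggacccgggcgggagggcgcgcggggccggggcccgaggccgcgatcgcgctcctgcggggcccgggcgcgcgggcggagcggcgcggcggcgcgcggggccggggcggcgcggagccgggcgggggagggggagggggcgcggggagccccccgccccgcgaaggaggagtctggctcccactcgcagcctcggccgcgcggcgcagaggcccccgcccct
Fibcd1, chr2:31846006-31846255, minus strand: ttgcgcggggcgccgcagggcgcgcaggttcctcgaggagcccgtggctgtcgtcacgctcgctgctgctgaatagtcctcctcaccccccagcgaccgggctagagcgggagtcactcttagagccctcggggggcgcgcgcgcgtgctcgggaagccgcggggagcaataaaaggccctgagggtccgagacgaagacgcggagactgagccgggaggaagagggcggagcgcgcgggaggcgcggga
Wfs1, chr5:36988983-36989232, minus strand: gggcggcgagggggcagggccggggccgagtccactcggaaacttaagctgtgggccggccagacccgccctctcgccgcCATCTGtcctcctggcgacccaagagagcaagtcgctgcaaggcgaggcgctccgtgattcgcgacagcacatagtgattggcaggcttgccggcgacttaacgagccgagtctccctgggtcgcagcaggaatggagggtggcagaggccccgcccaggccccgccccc
Gpr161, chr1:165295516-165295765, plus strand: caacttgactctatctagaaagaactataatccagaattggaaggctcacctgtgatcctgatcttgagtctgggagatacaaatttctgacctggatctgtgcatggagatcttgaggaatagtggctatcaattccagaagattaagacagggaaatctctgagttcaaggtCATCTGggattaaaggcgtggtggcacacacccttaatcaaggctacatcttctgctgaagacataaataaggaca
The E-box was found once in Wfs1, starting 170 bases before the start site, and once in Gpr161, starting 76 bases before it. Of all promoters of this length, 14.4% held CAGATG on either strand. The core of the POU octamer, ATGCAA, was in none of the 5 promoters on either strand, against 9.45% of all promoters. No overlap of the motifs therefore occurred.

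Over the 8 groups, the means of each gene stayed within a narrow range. Wfs1 varied most, from 116 ± 13.8 CPM (SD, n = 7) in Glu-CB1-KO after the open field to 162 ± 32.3 CPM (n = 5) in GABA-CB1-KO after the open field, a ratio of 1.39. Man1a ran from 72.1 to 91.5 CPM between group means (ratio 1.27), Gpr161 from 28.8 to 35.4 CPM (1.23), Pou3f1 from 40.6 to 46.8 CPM (1.15), Fibcd1 from 224 to 257 CPM (1.14) and Mpped1 from 270 to 301 CPM (1.12). The following ratios of single libraries are a description, since their range is never narrower than that of their group means. The highest library exceeded the lowest by 2.10 times for Wfs1, 1.95 times for Gpr161, 1.82 times for Man1a, 1.61 times for Pou3f1, 1.51 times for Mpped1 and 1.43 times for Fibcd1. Among genes of similar abundance, 98.2% had a smaller SD within groups than Wfs1 and between 91.2% and 95.4% a smaller one than the 5 others, so these markers belonged to the more variable transcripts of the tissue. In bulk tissue, fewer CA1 cells and less RNA per cell cannot be told apart.

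**Figure D2:**
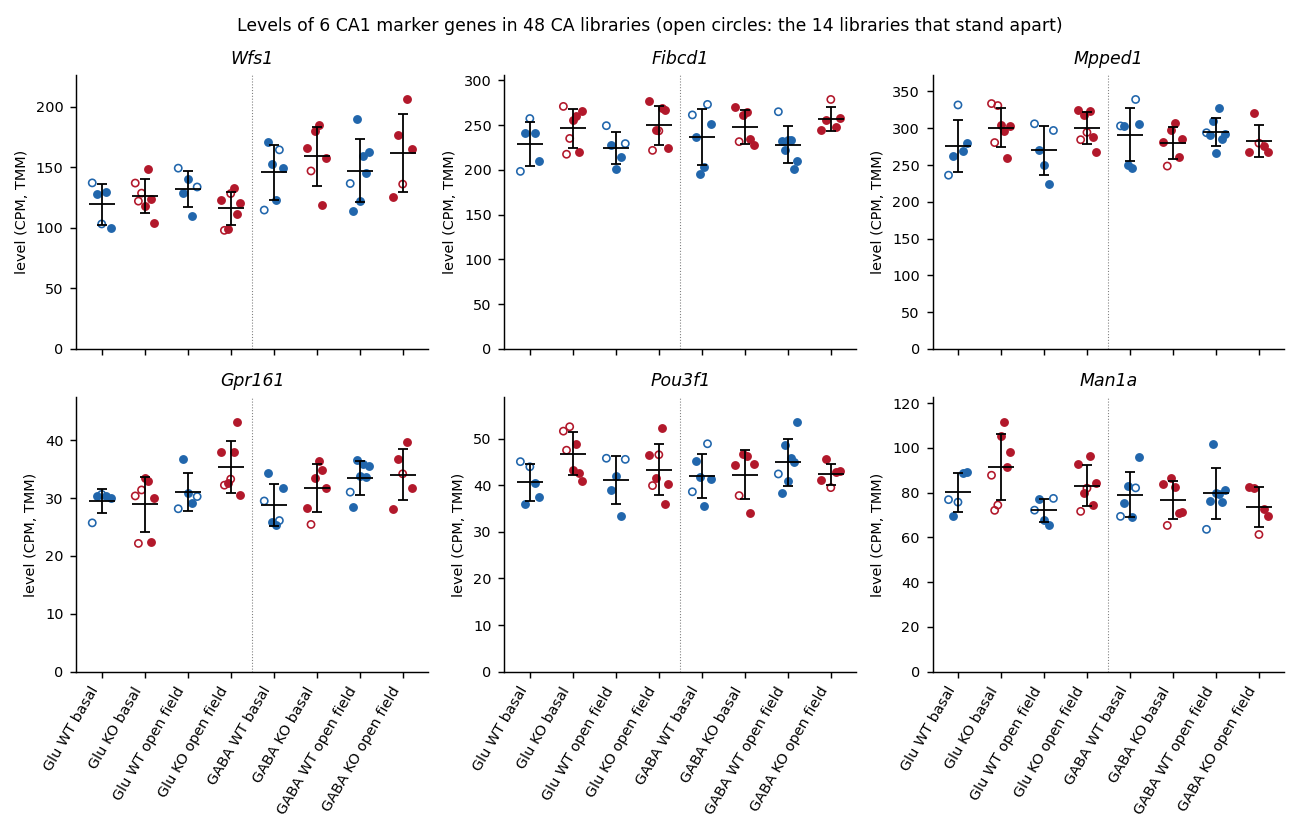
Level in CPM (vertical axes from 0) of each gene in the 48 libraries by group, blue for CB1-WT and red for KO, with open circles for the 14 libraries that stand apart and black marks for mean and SD. The groups overlap for all 6 genes, and the 4 GABA-CB1 groups of Wfs1 have means of 146 to 162 CPM against 116 to 132 CPM in the Glu-CB1 groups.

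The first question was whether loss of CB1 changed CA1 transcripts in unstimulated mice. None of the 6 genes passed an adjusted p of 0.05 in edgeR's quasi-likelihood test in the Glu-CB1 line, where 0.0198% of 15138 genes were called. Pou3f1 was the only member with an unadjusted p under 0.05, against 3.57% of all genes. It measured 35.96, 37.6, 40.5, 43.97 and 45.1 CPM in the CB1-WT mice, and between 40.99 and 52.6 CPM with a median of 47.5 CPM in the 7 Glu-CB1-KO mice. The 3 lowest CB1-WT mice lay under every KO mouse while the other 2 lay inside their range. The log2 difference was 0.20 ± 0.07 (SE), with an adjusted p of 0.999 by edgeR. Man1a differed by 0.19 ± 0.11 on the log2 scale, with 91.5 ± 14.8 CPM in KO and 80.0 ± 8.65 CPM in CB1-WT mice. The 4 other log2 differences were between −0.02 and 0.13. Higher values in KO mice were found for 5 of the 6 genes, against 49.5% of all genes, and the median was 0.11 against −0.00 over all genes. KO and CB1-WT mice overlapped for all 6, while 0.178% of all genes did not overlap. DESeq2 called no member in this or any other comparison.

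For the basal GABA-CB1 line no member was called either, where 0.245% of 15082 genes were, and none had an unadjusted p under 0.05 against 8.16% of all genes. Log2 differences were between −0.06 for Mpped1 and 0.14 for Gpr161, with a lowest adjusted p of 0.735 by edgeR. The 95% intervals (unadjusted) of all 6 together spanned −0.23 to 0.36 on the log2 scale. Wfs1 was 159 ± 24.2 CPM in KO and 146 ± 22.5 CPM in CB1-WT mice (n = 6 each), a difference smaller than either SD. Of the 6, 4 were higher in KO mice, against 49.7% of all genes, and none was without overlap, against 0.762%.

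After the open field, the Glu-CB1 line gave no called member, with 0.272% of 15078 genes called. Of the members, 5 had an unadjusted p under 0.05, against 6.97% of all genes, and they did not move one way. Wfs1 was lower in KO mice, and Fibcd1, Mpped1, Gpr161 and Man1a were higher. Some pairs of the 5 vary together between mice and others, such as Wfs1 and Fibcd1, do not (below), so the 5 are in part not independent. The lowest adjusted p was 0.463 by edgeR. Markers of the ventral hippocampus, CA3, interneurons and oligodendrocytes also leaned one way in these mice, with values given among the cell type markers. Marker lists leaned in GABA-CB1-KO mice after the open field too. Counting Pou3f1, 5 of 6 were higher in KO mice, against 48.4% of all genes, and none was without overlap, against 0.736%.

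Wfs1 measured 110, 128, 134, 140 and 149 CPM in the CB1-WT mice of this comparison, and 97.9 to 133 CPM with a median of 120.5 CPM in the 7 Glu-CB1-KO mice. The upper 3 of the 5 CB1-WT mice lay above every KO mouse and the lowest lay among them. The log2 difference was −0.19 ± 0.08 (adjusted p = 0.691 by edgeR). Man1a measured 65.7, 67.9, 72.1, 77.1 and 77.4 CPM in the CB1-WT mice, and 71.6 to 96.5 CPM with a median of 81.9 CPM in the KO mice. The groups overlapped between 71.6 and 77.4 CPM, with a log2 difference of 0.20 ± 0.07 (adjusted p = 0.463 by edgeR). Gpr161 was at 28.2, 29.2, 30.3, 30.9 and 36.7 CPM in the CB1-WT mice and at 30.5 to 43.1 CPM, median 33.3 CPM, in the KO mice. A single CB1-WT mouse at 36.7 CPM stood within the KO range, and another at 30.9 CPM stood at its lower edge. Fibcd1 differed by 0.15 ± 0.06 and Mpped1 by 0.15 ± 0.07 on the log2 scale, with means of 250 against 224 CPM and 300.1 against 270 CPM.

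GABA-CB1-KO mice of the open field had no called member, with 0.0199% of 15097 genes called. Fibcd1, the acetyl-sugar receptor, had an unadjusted p under 0.05, as 13.2% of all genes did. It measured 244, 248, 255, 258 and 279 CPM in the KO mice and 201 to 265 CPM, median 232 CPM, in the 7 CB1-WT mice. Every KO mouse lay above the CB1-WT median, and the ranges overlapped from 244 to 265 CPM. The log2 difference was 0.17 ± 0.06 (adjusted p = 0.274 by edgeR), beside 0.15 in the Glu-CB1 line. Direction was split, with 3 members higher and 3 lower in KO mice (50.7% of all genes were higher), and none was without overlap, against 0.967%. Leaving out single libraries or changing the processing moved this adjusted p between 0.0900 and 0.627. The choroid plexus markers were highest in 1 of these 5 KO libraries, and their part in the result was not tested.

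**Figure D3:**
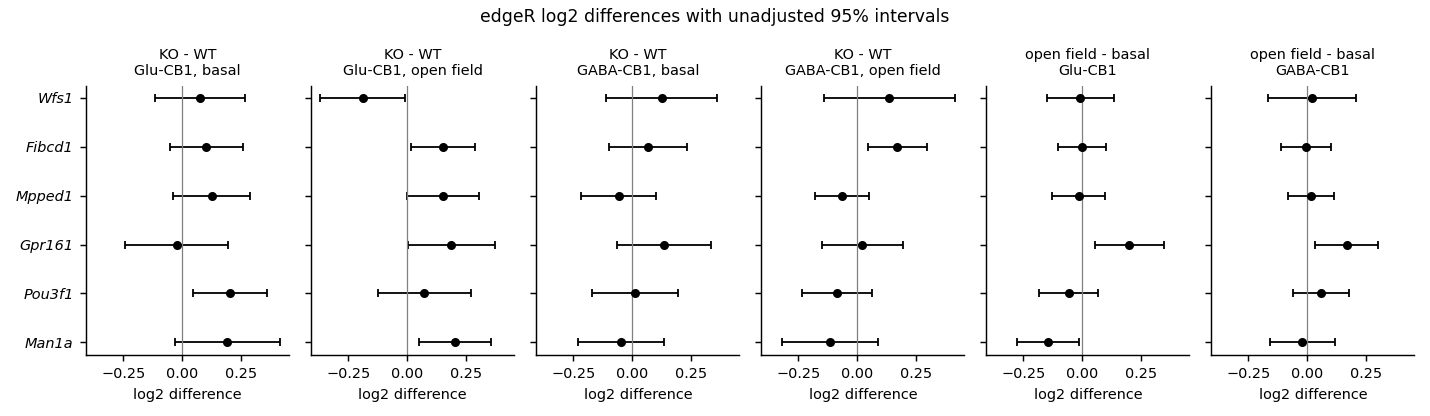
Log2 difference (horizontal axes, same scale) of each gene in the 4 comparisons of KO with CB1-WT and the 2 of open field with basal, as points with unadjusted 95% intervals from edgeR. None of the 36 values passed an adjusted p of 0.05, and Gpr161 lies above 0 after the open field in both lines (0.20 and 0.17).

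The second question was whether 5 min in a new arena had altered these transcripts an hour later. With both genotypes in the model, the open field changed 1.80% of 15355 genes in the Glu-CB1 line and 0.963% of 15374 genes in the GABA-CB1 line, and no member in either. Gpr161, the ciliary receptor, came nearest to a change in both lines. Its mean was 33.2 CPM after the open field and 29.2 CPM in the basal state of the Glu-CB1 line, a log2 difference of 0.20 ± 0.07 (adjusted p = 0.161 by edgeR). The GABA-CB1 means were 33.8 and 30.3 CPM, a log2 difference of 0.17 ± 0.07 (adjusted p = 0.267 by edgeR). The lines share no mice. An unadjusted p under 0.05 was met by 13.9% and 12.1% of all genes. Of the members, 1 was higher after the open field in the Glu-CB1 line (46.8% of all genes) and 4 in the GABA-CB1 line (49.6%). Gpr161 also moved with the first principal component (r = 0.39 over 48 libraries). With that component as a covariate its adjusted p in the Glu-CB1 line was 0.0766, the lowest of 33 alternatives.

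Man1a, the Golgi mannosidase, was lower after the open field in the Glu-CB1 line, with 77.5 against 85.7 CPM and a log2 difference of −0.14 ± 0.06 (adjusted p = 0.311 by edgeR). The GABA-CB1 value was −0.02 ± 0.07. Without the 14 libraries that stand apart, the log2 difference in the Glu-CB1 line was −0.24 with an adjusted p of 0.0666 by edgeR. Man1a followed the first principal component more than the other members did (r = 0.50) and was 73.7 ± 7.44 CPM in the 14 libraries against 82.7 ± 11.4 CPM in the 34. For Wfs1, Fibcd1, Mpped1 and Pou3f1 the differences between states were between −0.06 and 0.06 on the log2 scale in both lines. For Mpped1 and Fibcd1 the 95% intervals ran from 0.916 to 1.08 as a ratio.

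Whether the effect of the KO differed between states or lines was tested with interaction terms, 24 tests over the 6 genes, and none passed. Terms above 0 were found for 4 and 2 members by state (Glu-CB1 and GABA-CB1, against 50.7% and 51.4% of all genes), and for 4 members between lines in either state (49.8% and 48.4%). The genotype by state term called no gene at all in either line by edgeR. At an unadjusted p under 0.05 it held 379 of 15355 genes (2.47%) in the Glu-CB1 line and 2237 of 15374 genes (14.6%) in the GABA-CB1 line, with no member among them. DESeq2 called 0 and 62 genes. Wfs1 had the largest term of the 6, a log2 value of −0.26 ± 0.13 for the Glu-CB1 line (adjusted p = 1.00 by edgeR). Its KO effect was 0.08 in basal mice and −0.19 in open field mice. Between lines, the KO effect of Man1a differed by 0.32 ± 0.13 after the open field (adjusted p = 0.353 by edgeR), being 0.20 in the Glu-CB1 and −0.11 in the GABA-CB1 line. Mpped1 differed in the same direction, by 0.22 ± 0.10 (adjusted p = 0.405 by edgeR), and Wfs1 in the opposite one, by −0.33 ± 0.17 (adjusted p = 0.497 by edgeR). These terms were called for 0.568% of 15325 genes after the open field and 0.279% of 15390 genes in the basal state. An unadjusted p under 0.05 was met by 10.8% and 8.56% of genes, and by 2 and 0 of the members.

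The CB1-WT mice of the lines were compared as well, and no member was called. In CB1-WT mice of both states Wfs1 averaged 126 CPM in the Glu-CB1 and 147 CPM in the GABA-CB1 line, a log2 difference of −0.22 ± 0.08 (adjusted p = 1.00 by edgeR). An unadjusted p under 0.05 was met by 593 of 15350 genes (3.86%), of the members by Wfs1 alone, while edgeR and DESeq2 each called 0 genes (0%) at an adjusted p of 0.05. Its coefficient of variation was 11.2% to 14.1% in the Glu-CB1 groups and 15.2% to 20.0% in the GABA-CB1 groups. The lines differ in breeding, in the Cre of their KO mice and in the order of the libraries in the titles, where all Glu-CB1 libraries come first. These cannot be told apart here. The 5 other members differed by −0.11 to −0.03 on the log2 scale between CB1-WT mice of the lines, so all 6 were lower in the Glu-CB1 line, while 51.7% of all genes were higher there. This direction was not particular to the members: the 6 other CA1 genes, all 7 interneuron, 7 choroid plexus, 6 oligodendrocyte, 5 vascular, 5 ventral hippocampus and 4 thalamus markers were also lower there, none of them called, while 5 of 6 CA3 markers were higher.

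Several pairs of members varied together between mice of the same group, and others showed little relation. After each group's mean was subtracted, 7 of 15 pairs were correlated over the 48 libraries at an adjusted p of 0.05, in permutation tests within groups (two-sided, 100000 permutations, Benjamini-Hochberg over 15 pairs). All 15 values of Pearson's r were above 0. Wfs1 and Pou3f1 were the closest pair, with r = 0.72 (p = 1e-05, the smallest the permutations can give, adjusted p = 0.00015) and Spearman's rho = 0.75 (p = 1e-05). Without the 2 libraries farthest from the median of Wfs1 r was 0.68, and it was 0.76 in the 34 libraries, 0.85 in the 14 that stand apart, 0.63 in the Glu-CB1 and 0.82 in the GABA-CB1 line. Fibcd1 and Mpped1 had r = 0.67 (p = 2e-05, adjusted p = 0.00015) and rho = 0.65 (p = 2e-05). Without the 2 libraries farthest in Fibcd1 r was 0.61, and it was 0.58 in the 34, 0.89 in the 14, 0.70 in the Glu-CB1 and 0.64 in the GABA-CB1 line.

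Mpped1 was also correlated with Pou3f1 and Gpr161, with r = 0.59 to Pou3f1 (p = 7e-05, adjusted p = 0.00035, rho = 0.60 with p = 8e-05, and r = 0.55 without the 2 farthest libraries) and 0.45 to Gpr161 (p = 0.00206, adjusted p = 0.00772, rho = 0.44 with p = 0.00333, and r = 0.46 without the 2). Wfs1 and Fibcd1, both classic CA1 markers, were nearly unrelated (r = 0.08, p = 0.593, rho = 0.12, p = 0.446). Weaker pairs were Fibcd1 with Gpr161 (r = 0.39, p = 0.0103, adjusted p = 0.0309), Wfs1 with Man1a (r = 0.38, p = 0.0133, adjusted p = 0.0333) and Pou3f1 with Man1a (r = 0.35, p = 0.0227, adjusted p = 0.0486). Their rho values were 0.35 (p = 0.0233), 0.39 (p = 0.0130) and 0.33 (p = 0.0340), and r without the 2 farthest libraries was 0.35, 0.38 and 0.31. By rho, Pou3f1 with Man1a did not pass (adjusted p = 0.0635 by permutation), while Mpped1 with Man1a did (rho = 0.35, adjusted p = 0.0499). In the Glu-CB1 line alone, Wfs1 with Man1a had r = 0.21 and Pou3f1 with Man1a 0.17. Fibcd1 with Gpr161 had r = 0.13 among GABA-CB1 mice. Further pairs passed in parts of the data, namely Wfs1 with Gpr161 in the GABA-CB1 line and in the 34 libraries (adjusted p = 0.0436 and 0.0283 by permutation), Wfs1 with Mpped1 in the GABA-CB1 line (0.0436) and Mpped1 with Man1a in the 34 libraries (0.0120).

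**Figure D4:**
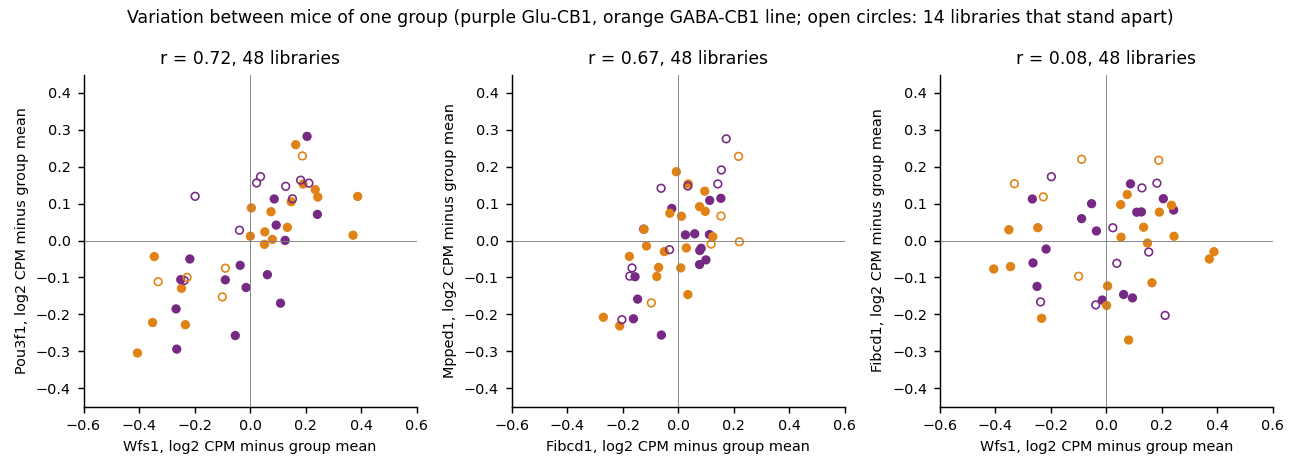
Deviation of log2 CPM from the group mean for 3 pairs of genes, 1 point per library, purple for the Glu-CB1 and orange for the GABA-CB1 line, with open circles for the 14 libraries that stand apart. Wfs1 rises with Pou3f1 (r = 0.72) and Fibcd1 with Mpped1 (r = 0.67), and Wfs1 against Fibcd1 shows a round cloud (r = 0.08).

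To see whether this variation follows the makeup of the dissected piece, each member was set against summed levels of marker lists, 36 relations in all, of which 14 passed an adjusted p of 0.05. All 6 members rose with the sum of 6 other CA1 genes, among them Nov, Pex5l and Calb1. The relation was closest for Mpped1 (r = 0.83, p = 1e-05, adjusted p = 0.00036, rho = 0.86 with p = 1e-05, and r = 0.81 without the 2 farthest libraries). It was r = 0.60 for Gpr161, 0.58 for Pou3f1, 0.56 for Man1a and 0.50 for Fibcd1, with p from 4e-05 to 0.00126, adjusted p from 0.00072 to 0.00532, rho from 0.50 to 0.60 and r from 0.44 to 0.55 without the 2 libraries. Wfs1 was the least close (r = 0.36, p = 0.0191, adjusted p = 0.0492, rho = 0.42 with p = 0.00580, and 0.35 without the 2 libraries). For Wfs1 it held in the GABA-CB1 line (r = 0.58) and not in the Glu-CB1 line (r = 0.08). Fibcd1 missed the threshold in the GABA-CB1 line (r = 0.37, adjusted p = 0.339 by permutation), and Pou3f1 (r = 0.53, adjusted p = 0.0651) and Man1a (r = 0.49, adjusted p = 0.0714) missed it in the Glu-CB1 line. Mpped1 and Gpr161 passed in both lines. These correlations share library depth and normalization.

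Against markers of the neighboring fields the members parted. Mpped1 fell as summed CA2 markers rose (r = −0.54, p = 0.00062, adjusted p = 0.00319, rho = −0.54 with p = 0.00051), likewise with CA3 markers (r = −0.50, p = 0.00133, adjusted p = 0.00532, rho = −0.51 with p = 0.00123) and dentate granule markers (r = −0.49, p = 0.00254, adjusted p = 0.00914, rho = −0.43 with p = 0.00545). Fibcd1 fell with dentate markers (r = −0.60, p = 0.0001, adjusted p = 0.00072, rho = −0.49 with p = 0.00158) and with CA2 markers (r = −0.39, p = 0.0160, adjusted p = 0.0443, rho = −0.37 with p = 0.0231). Gpr161 fell with CA2 markers (r = −0.51, p = 0.00044, adjusted p = 0.00264, rho = −0.46 with p = 0.00216) and rose with interneuron markers (r = 0.48, p = 0.00376, adjusted p = 0.0123, rho = 0.37 with p = 0.0210). Pou3f1 fell with CA3 markers (r = −0.37, p = 0.00886, adjusted p = 0.0266, rho = −0.44 with p = 0.00284). By rho, Fibcd1 with CA2 markers (adjusted p = 0.0595 by permutation) and Gpr161 with interneuron markers (0.0583) did not pass. Without the 2 farthest libraries r was −0.52, −0.44 and −0.48 for Mpped1, −0.54 and −0.32 for Fibcd1, −0.42 and 0.32 for Gpr161 and −0.32 for Pou3f1, in the same order. Within the 34 libraries, the values were −0.49, −0.39 and −0.35 for Mpped1, −0.35 and −0.43 for Fibcd1, −0.47 and 0.39 for Gpr161 and −0.29 for Pou3f1, none of them at an adjusted p under 0.05. Gpr161 with interneuron markers had r = 0.18 in the GABA-CB1 line, and 0.36 (adjusted p = 0.0816 by permutation) with the first principal component removed. Wfs1 and Man1a showed no relation past the threshold with any field but CA1, and oligodendrocyte markers with no member.

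**Figure D5:**
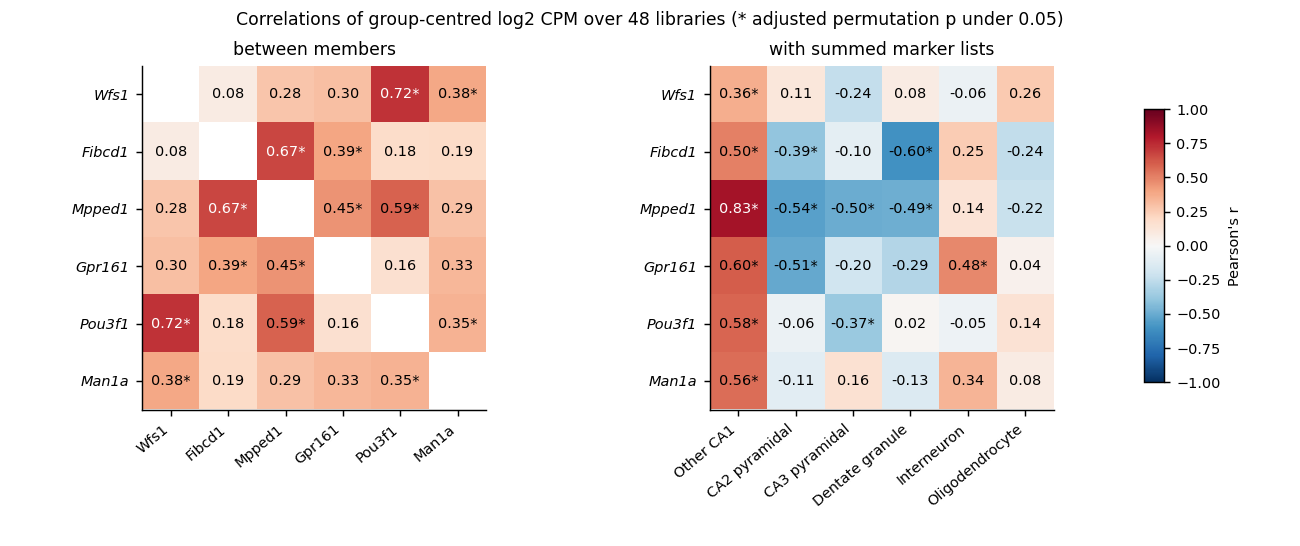
Pearson's r over 48 libraries after subtraction of group means, between members (left) and between members and 6 summed marker lists (right), red for positive and blue for negative values, with a star for an adjusted permutation p under 0.05. The column of other CA1 genes is positive for all 6 members (0.36 to 0.83), and the CA2, CA3 and dentate columns are mostly negative for Mpped1, Fibcd1 and Gpr161.

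Among 11328 genes with a mean of at least 5 CPM, those most like the mean of the 6 members over the 48 libraries (Pearson's r after subtraction of group means, given as a description) were Pex5l (r = 0.81), Ntm (0.78), Cdkl4 (0.71), Adgrl2 (0.71) and Cadps2 (0.71). Pex5l, a partner of HCN channels, was also on the list of other CA1 genes, and Adgrl2, latrophilin, is the CA marker by which the study chose its samples. For single members, Nov (0.87) and Ldb2 (0.84) were closest to Mpped1, Maged1 (0.74) and Nrsn2 (0.73) to Fibcd1, and Etv5 (0.77) and 9430020K01Rik (0.74) to Gpr161. Scn4b (0.72), a sodium channel subunit, and Asap1 (0.72) were closest to Wfs1, 1190002N15Rik (0.77) and Sept6 (0.76) to Pou3f1, and Prkcb (0.75) and Ext1 (0.74) to Man1a. These genes share library depth with the members. Over the 17 genes r was 0.65 to 0.89 within the 34 libraries and 0.63 to 0.92 within the 14.

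Lists of genes from the members' pathways were read against the share of all genes called, 1.80% and 0.963% for the open field in the Glu-CB1 and GABA-CB1 lines and at most 0.568% in the other comparisons. Of 19 genes of the unfolded protein response and endoplasmic reticulum around Wfs1, 2 were called higher after the open field in the Glu-CB1 line. These were the transcription factor Xbp1 (log2 difference 0.32 ± 0.08, adjusted p = 0.0315 by edgeR) and Herpud1, a protein of the degradation machinery (0.22 ± 0.06, adjusted p = 0.0321 by edgeR). Among GABA-CB1 mice, Xbp1 (0.22 ± 0.05, adjusted p = 0.0200 by edgeR) and the chaperone Hspa5 (0.28 ± 0.07, adjusted p = 0.0387 by edgeR) rose. None of the 19 was called lower in any comparison. Over the 48 libraries Hspa5 ran from 191 to 592 CPM with a mean of 242 CPM. Wfs1 itself differed by −0.01 and 0.02 between states. None of the 15 genes of N-glycan trimming around Man1a, of the 18 genes of the Hedgehog pathway and cilium around Gpr161, or of the 7 paralogs of members passed in any of the 11 comparisons. The paralogs Mpped2, Man1a2, Man1b1, Man1c1, Pou3f2 and Pou3f3 were all expressed (13.6 to 176 CPM), and Pou3f4 was at 1.44 CPM.

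Among cell type markers, none of the 6 other CA1 genes, the 5 CA2 markers or the 6 dentate markers was called in any comparison. In the Glu-CB1 line after the open field, the other CA1 genes had a median log2 difference of 0.11 beside 0.15 for the members and −0.00 for all genes. Nov and Calb1 were the genes of that list with an unadjusted p under 0.05. In Glu-CB1-KO mice after the open field the CA3 marker Iyd (−0.56 ± 0.11, adjusted p = 0.0463 by edgeR) and the thalamic marker Prkcd (−0.58 ± 0.07, adjusted p = 0.00309) fell, and the cortical marker Fezf2 rose (0.33 ± 0.06, adjusted p = 0.0361). Whole lists leaned one way in this comparison, the one in which 5 members had an unadjusted p under 0.05, as lists did elsewhere (below). All 5 ventral hippocampus markers were higher in KO mice (median log2 difference 0.42, 4 with an unadjusted p under 0.05), as were all 7 interneuron markers (median 0.12, 4 of them) and 5 of 7 choroid plexus markers (median 0.36, 1 of them). Cortical markers were higher in 4 of 5 cases (median 0.14, 3 with an unadjusted p under 0.05 in either direction). Of the CA3 markers 5 of 6 were lower (median −0.20, 5 with an unadjusted p under 0.05 in either direction), and all 6 oligodendrocyte markers were lower (median −0.11, 3 of them). All 6 dentate (median −0.04), all 6 microglia (−0.05), 5 of 6 astrocyte (−0.05) and 4 of 5 CA2 markers (−0.16) were lower too, none with an unadjusted p under 0.05. Summed ventral markers were 133 to 192 CPM in KO and 98.6 to 151 CPM in CB1-WT mice, and summed interneuron markers 803.3 to 879 CPM against 709 to 802.9 CPM. The ventral sums overlapped, and the interneuron sums did not, by a narrow gap. Summed thalamus markers did not overlap either, with 42.7 to 53.0 CPM in KO and 57.3 to 71.2 CPM in CB1-WT mice. In the GABA-CB1 line after the open field, the interneuron sums were apart in the opposite direction (744 to 781 CPM in KO and 792 to 831 CPM in CB1-WT mice). Whole lists also leaned in GABA-CB1-KO mice after the open field, where 1 member had an unadjusted p under 0.05. There all 5 CA2 markers were higher (median log2 difference 0.22, 4 with an unadjusted p under 0.05). All 7 choroid plexus markers were higher as well (median 2.42, 5 of them), with the sum of replicate 4 at 4072 CPM. Lower were 6 of 7 interneuron markers (median −0.10, 3 of them), all 5 cortical and all 5 ventral markers (medians −0.14 and −0.18). The part of tissue makeup in the members' values was not tested. In unstimulated GABA-CB1-KO mice the CA3 marker Bok fell (−0.52 ± 0.07, adjusted p = 0.00328 by edgeR). Between lines after the open field, the KO effect differed for Fezf2 (0.47), Prkcd (−0.62) and the GABA-synthesizing enzyme Gad1 (0.25 ± 0.05, adjusted p = 0.00994 by edgeR). No marker of choroid plexus, oligodendrocytes, astrocytes, microglia, vessels, the ventral hippocampus or, with 1 of 5 genes tested, blood was called.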

How the data were processed

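The authors extracted RNA from microdissected Cornus Ammonis, amplified it with NuGEN's Ovation system, sequenced single-end libraries, trimmed the reads, aligned them to mm10 with STAR 2.6.0a and counted them by strand on the exons of each gene with featureCounts 1.6.2. The values they deposited are raw counts, without normalization, of 24421 genes in 48 libraries, so each value also carries the effects of trimming, alignment and strand setting. The deposited gene length served for CPM per kb.

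The 6 members and the 19 gene lists were chosen with earlier results of these data known. Counts were tested with edgeR 4.0.16 (quasi-likelihood, TMM, filterByExpr, Benjamini-Hochberg over all genes tested, adjusted p under 0.05) in R 4.3.3, for 11 comparisons with the libraries of each. SEs come from the F statistic, and intervals are unadjusted. Levels are CPM with TMM over 48 libraries. Correlations used log2 CPM (prior count 2) less group means and 100000 permutations within groups, in Python 3.11.15 with numpy 2.4.6. Tests were tried on simulated data. Named are all members, genes of the lists that passed (up to 5 per list and comparison), the 5 genes most like the members' mean, 2 per member, and Cnr1. Nov and Calb1 were named as well after their values were seen. An item of the lists is not reported here by name.

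Alternatives were DESeq2 1.42.0, RLE size factors, other filters, all 48 libraries in one fit, the range of the title number as covariate, the replicate number as block, and each library left out. Leaving out the 14 libraries, or adding the first principal component, was chosen after seeing the data. Between 25892654 and 34091080 reads per library give each member at least 699 counts, and no 2 libraries of a group were duplicates (lowest chi-square per degree of freedom 2.93 over 123 pairs). Each library is 1 mouse, so p-values measure the spread between mice. The study compared KO with littermates and sequenced the libraries in pools that mixed the groups. Litter and pool of each library were not used here.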

Additional observations from a re-analysis of the deposited data

Results flagged for a closer look

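In 2 of 48 sets (6 genes in 8 groups of 5 to 7 mice) 1 library lay far from the rest of its group by Dixon's criterion at 95%, which chance alone meets in about 1 of 20 groups. Mpped1 in replicate 2 of GABA-CB1-KO after the open field was at 320.5 CPM, with the nearest of the 4 others at 280 CPM and the lowest at 267 CPM. Gpr161 in replicate 1 of Glu-CB1-WT in the basal state was at 25.7 CPM, with the nearest of the 4 others at 30.1 CPM and the highest at 30.6 CPM, and this library was one of the 14 that stand apart. None of the 24 tests of a difference between effects was past the threshold (lowest adjusted p 0.353 by edgeR).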

How the results depend on the processing

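No member passed an adjusted p of 0.05 in any of the 11 comparisons under any alternative run, DESeq2 and each library left out in turn included (0 of 6 in every case). The number of correlated pairs of members went from 7 to 4 in the Glu-CB1 line and to 0 in the 14 libraries that stand apart, where only 96 rearrangements exist. Relations with marker lists went from 14 to 7 in each line, to 4 in the 34 libraries and to 0 in the 14. Within the 14, Wfs1 and the other CA1 genes had r = −0.060, and Pou3f1 and CA3 markers r = 0.18. The replicate numbers did not pair the mice: same-numbered libraries of KO and CB1-WT correlated by −0.33 to 0.32 over 21 pairs, 4 of them over 0.1. With the replicate number as a block, 0 members were called, and the calls among all genes went from 41 to 3 (Glu-CB1-KO, open field), 37 to 8 (GABA-CB1-KO, basal), 3 to 1 (GABA-CB1-KO, open field), 148 to 36 (open field, GABA-CB1 line), 43 to 28 and 87 to 6 (KO effect between lines, basal and open field). DESeq2 called 14, 131, 110 and 158 genes for KO against CB1-WT (Glu-CB1 basal and open field, GABA-CB1 basal and open field), where edgeR called 3, 41, 37 and 3. It called 496 and 272 for the open field (edgeR 276 and 148), 62 for the GABA-CB1 genotype by state term (edgeR 0), and 90 and 213 between lines. A single fit of 48 libraries gave 7 and 106 in the first and last of the KO comparisons and 53 between lines after the open field. With the first principal component as covariate the counts were 89, 112 and 32 (KO, all but Glu-CB1 basal), 592 and 223 (open field), 563 (GABA-CB1 term), 66 and 180. The title number gave 16 and 24 for Glu-CB1-KO after the open field and basal GABA-CB1-KO. Without the 14 libraries 15 and 22 were called there, 15 for the open field in the GABA-CB1 line and 44 between lines after the open field. Leaving out 1 library gave 3 to 5, 14 to 48, 17 to 34 and 2 to 11 for KO, 149 to 440 and 71 to 267 for the open field and 50 to 112 between lines after it. Of the differences of single members under alternatives that leave out no single library, 578 kept and 10 changed their sign, none of them called. With single libraries left out, 1194 kept and 96 changed their sign, again none of them called. The 95% intervals of the KO effects, with 5 to 7 mice per group, lay between −0.37 and 0.42 on the log2 scale, and smaller differences could be missed.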
